A study of Mus musculus with 6 samples.

Results

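The BCL2 family sets the balance between survival and death at the outer mitochondrial membrane. Its guardians (BCL-2, BCL-XL and MCL-1) bind and restrain the effectors BAX and BAK, which otherwise open pores that release cytochrome c and start the caspase cascade, while the BH3-only proteins (BIM, BID, BAD, NOXA and BMF) occupy the guardians or engage the effectors directly. In developing B cells the family is known as the point where survival signals from the interleukin-7 receptor and the pre-B cell receptor meet stress and DNA damage, with MCL-1 essential early in the lineage and BIM a main mediator of cell removal.

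The 10 genes described here, *Bcl2*, *Bcl2l1*, *Mcl1*, *Bax*, *Bak1*, *Bcl2l11*, *Bid*, *Bad*, *Pmaip1* and *Bmf*, were chosen by symbol as guardians, effectors and BH3-only genes, and all 10 had a row among the 13426 genes of the deposited table. They were compared between sorted B cell progenitors at the early large pre-B (early LPre-B) stage from control (Ctrl) mice, *Upf1* Flox/Flox with *Mb1* +/+, and from conditional knockout (cKO) mice, *Upf1* Flox/Flox with *Mb1* Cre/+, with 3 libraries per group. Both groups carry the floxed *Upf1* alleles, and the Cre recombinase, expressed from the B lineage locus *Cd79a* (Mb1), is present in the cKO group alone, so an effect of Cre or of the *Cd79a* knock-in cannot be told apart from that of *Upf1* deletion. UPF1 is the RNA helicase at the centre of nonsense-mediated mRNA decay (NMD), and the comparison asks which transcripts differ when it is removed at this stage. Per the study's methods the mice were adults of both sexes on a C57BL/6 background, the cells were sorted from bone marrow by a gate that included lineage-negative, B220+, surface IgM-, CD43+, CD2- cells of high forward scatter, and the libraries were independent biological replicates.

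The values are normalised reads, that is reads per 1000000 reads of each library's effective size, and the libraries held between 9732498 and 11006834 reads. All 13 B lineage markers had a row, and their summed level was 2670 to 2941 normalised reads in Ctrl and 3146 to 3363 in cKO libraries. Of the 13, 6 were called higher, among them *Dntt* (log2 fold change 1.64), *Rag1* (1.55) and *Rag2* (1.16), and 2 lower, *Cd79a* (-1.58) and *Ptprc* (-0.84). *Cd79a* itself was at 221 ± 11.4 (SD, n = 3) in Ctrl and 73.3 ± 1.85 (SD, n = 3) in cKO libraries. The row of *Upf1*, in which reads from floxed and other exons are added together, was at 241 ± 32.3 in Ctrl and 297 ± 12.7 in the libraries labelled cKO (log2 fold change 0.31, limma adjusted p = 0.00696, or 0.19 without Ctrl 2), so it is no check of the deletion. At the protein level, the study reported loss of UPF1 in pro-B and early LPre-B cells of cKO mice. The stage markers differed, with *Kit* higher (2.07) and *Il2ra* (-2.42), *Cd2* (-1.21, or -2.17 without the added 1) and *Cd22* (-2.84) lower in the libraries labelled cKO. Markers of neutrophils moved with the groups as well, since the 8 genes summed to 14.3 to 119 normalised reads in Ctrl, with Ctrl 1 highest, and to 328 to 460 in cKO libraries, and 5 of the 8 were called higher. The most abundant of them, *Ngp*, was at 16.6 ± 24.5 in Ctrl and 124 ± 26.4 in cKO libraries and was itself not called (adjusted p = 0.0572). Summed markers were 34.6 to 60.9 against 58.4 to 79.3 for monocytes and macrophages (4 of 6 genes in the table), 1.17 to 1.59 against 3.79 to 5.27 for T and NK cells (2 of 8, with the CD3, CD4 and CD8 genes absent), 6.92 to 11.3 against 7.97 to 9.22 for erythroid cells (3 of 7, with no globin gene), 164 to 181 against 168 to 194 for plasmacytoid dendritic cells (4 of 4, with *Irf8* making up most of the sum and *Bst2* and *Ccr9* called higher) and 0.0497 to 0.266 against 0.732 to 1.39 for stromal cells (1 of 4). The part of cell stage and of these other cells in the results was not tested, and in bulk libraries fewer cells of a type and less RNA per cell cannot be told apart.

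In the early LPre-B libraries labelled cKO, the guardians were at levels close to those of Ctrl, the mean level of the effector *Bax* was 1.35 times that of Ctrl, that of the low BH3-only gene *Pmaip1* 1.68 times and that of the BH3-only gene *Bmf* 0.689 times. With limma on log2(normalised reads + 1) and an adjusted p threshold of 0.05 over all genes, 2 of the 10 members were higher (*Bax*, *Pmaip1*), 1 was lower (*Bmf*) and 7 were not called. This share of 30% stands beside 52.7% of all genes called, 27.7% higher and 25.0% lower. The median log2 fold change was 0.08 over the members and 0.01 over all genes, and the median absolute value was 0.13 against 0.36. The groups did not overlap for 5 of the 10 members, against 58.8% of all genes. Dividing by each library's total reads in place of its effective size moved the median of all genes to 0.19, and then 5 members were called higher and *Bmf* lost its call.

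**Figure D1:**
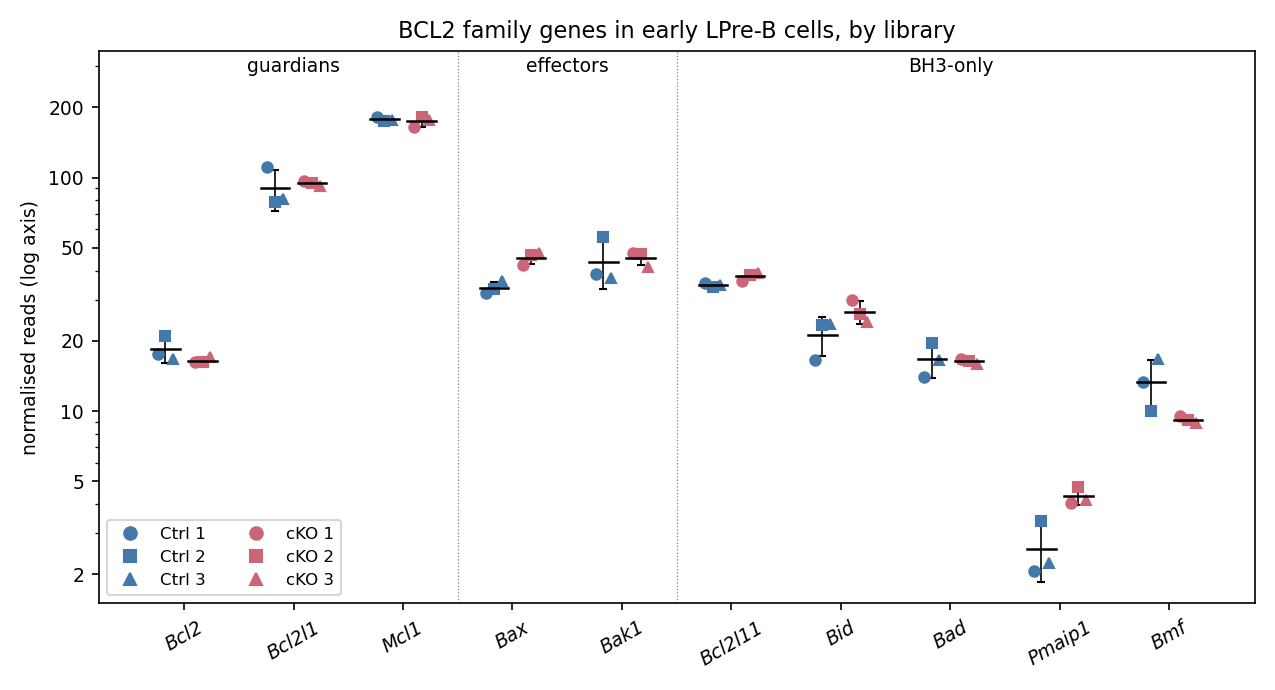
Normalised reads of the 10 BCL2 family genes in each library (log axis), with genes on the x axis grouped by role. Circles, squares and triangles are replicates 1, 2 and 3, horizontal bars are group means and whiskers are 1 SD (n = 3). The groups do not overlap for *Bax*, *Bcl2l11*, *Bid*, *Pmaip1* and *Bmf*, and the Ctrl points are spread widest for *Pmaip1*, *Bmf* and *Bak1*.

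Among the guardians, *Mcl1*, whose short-lived protein must be made continuously, was the most abundant member. It was at 182, 174 and 177 normalised reads in Ctrl libraries 1, 2 and 3 and at 165, 182 and 177 in the libraries labelled cKO. The groups overlapped, and the log2 fold change of -0.03 had a 95% confidence interval (CI) of -0.18 to 0.13 (SE 0.07, adjusted p = 0.775). The interval leaves room for a fold between 0.88 and 1.09.

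*Bcl2l1*, which encodes BCL-XL, was at 111, 78.6 and 81.3 in Ctrl and at 96.7, 95.3 and 91.9 in cKO libraries. Ctrl 1 was above and the other Ctrl libraries below all cKO libraries, so the mean of 90.3 ± 18 (SD, n = 3) against 94.6 ± 2.43 gave a log2 fold change of 0.08 (95% CI -0.14 to 0.31, adjusted p = 0.535). Ctrl 1 is also the Ctrl library with the most neutrophil marker reads, at 119 against 328 to 460 in the cKO libraries. A link of these reads to *Bcl2l1* was not tested. Without Ctrl 1, *Bcl2l1* had a log2 fold change of 0.24 (adjusted p = 0.0189).

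*Bcl2*, the founding guardian, was low at 17.5, 21.1 and 16.6 in Ctrl and 16.1, 16.2 and 17 in cKO libraries. The cKO values lay inside or just under the Ctrl range, and the log2 fold change was -0.15 (95% CI -0.42 to 0.13, adjusted p = 0.366), or -0.050 without Ctrl 2. Each of the 3 guardians thus had an interval that included 0.

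Of the effectors, *Bax* (Entrez ID 12028, chr7:45461695-45466903, GRCm38) was the member with the lowest adjusted p. It was at 31.9, 33.3 and 36.1 in Ctrl and at 42.1, 46.6 and 47.8 in cKO libraries, so all 3 libraries labelled cKO were above all 3 Ctrl libraries. Its mean rose from 33.8 ± 2.13 to 45.5 ± 2.98 (SD, n = 3), a log2 fold change of 0.42 (95% CI 0.21 to 0.63, SE 0.10, adjusted p = 0.00177) and a fold of 1.34 (95% CI 1.16 to 1.55) on the scale of normalised reads + 1. The call held in each of 17 alternative ways of processing, with log2 fold changes from 0.31 to 0.62. The gene Gm45808, on the same strand, shares 12.2% of the exon bases of *Bax*, so part of the *Bax* value cannot be assigned. Reads were counted without strand, so the same holds for overlaps with exons of the opposite strand.

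*Bak1*, which encodes the other effector, was at 38.5, 55.5 and 37 in Ctrl and 47.4, 47.1 and 41.6 in cKO libraries. Ctrl 2 was above all other libraries, the groups overlapped, and the log2 fold change was 0.08 (95% CI -0.20 to 0.35, adjusted p = 0.652). Opposite-strand exons of *Ggnbp1* share 18.2% of its exon bases.

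Among the BH3-only genes, *Bcl2l11* encodes BIM, which binds all of the guardians. It was at 35.3, 33.9 and 34.7 in Ctrl and 36.1, 38.5 and 39 in cKO libraries. The groups did not overlap, but the difference was small, with a log2 fold change of 0.12 (95% CI -0.08 to 0.33, adjusted p = 0.305).

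*Bid*, whose product is cut by caspase-8 and so links death receptors to mitochondria, was at 16.5, 23.4 and 23.6 in Ctrl and at 30, 26 and 24 in cKO libraries. The groups did not overlap, although Ctrl 3 and cKO 3 were nearly equal, and the log2 fold change of 0.33 (95% CI 0.04 to 0.63) missed the threshold (adjusted p = 0.0549). Leaving out Ctrl 2 or Ctrl 3 gave 0.41 in each case, with adjusted p = 0.0383 and 0.0258, while it was 0.17 without Ctrl 1 (0.275) and 0.25 without cKO 1 (0.226). *Bid* shares 17.7% of its exon bases with the opposite-strand end of *Bcl2l13*, which was not called (-0.03).

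*Bad*, whose product is held inactive by phosphorylation under growth factor signals, was at 14, 19.7 and 16.5 in Ctrl and at 16.6, 16.4 and 16 in cKO libraries. All cKO values lay within the Ctrl range, and the log2 fold change was -0.02 (95% CI -0.31 to 0.27, adjusted p = 0.916). *Gpr137* shares 20.5% of the exon bases of *Bad*.

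*Pmaip1* encodes NOXA, which neutralises MCL-1, and was the least abundant member, with 19 to 52 reads per library. It was at 2.07, 3.38 and 2.23 normalised reads in Ctrl and at 4.05, 4.73 and 4.17 in cKO libraries. All cKO libraries were above all Ctrl libraries, and the mean rose from 2.56 ± 0.716 to 4.32 ± 0.365 (SD, n = 3), a log2 fold change of 0.59 (95% CI 0.16 to 1.03, SE 0.21, adjusted p = 0.0227) that the added 1 understates (0.78 without it). The call was lost with DESeq2 (adjusted p = 0.0662), median centring (0.0572) and quantile normalization (0.0997), and without Ctrl 1 (0.076), Ctrl 3 (0.0683), cKO 2 (0.0798) or cKO 3 (0.0504).

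*Bmf* (Entrez ID 171543, chr2:118528757-118549686, GRCm38), whose product is released from the cytoskeleton under stress, moved the other way. It was at 13.3, 10.1 and 16.6 in Ctrl and at 9.51, 9.15 and 8.89 in cKO libraries. The cKO libraries were close together and under all Ctrl libraries, of which Ctrl 2 was nearest. The mean fell from 13.3 ± 3.29 to 9.19 ± 0.312 (SD, n = 3), with a log2 fold change of -0.47 (95% CI -0.82 to -0.11, SE 0.17, adjusted p = 0.0273). The call was lost with eBayes run without both the intensity trend and robust estimation (adjusted p = 0.0509), after scaling to total reads (0.199) and when any library other than Ctrl 2 was left out (0.0518 to 0.169). The log2 fold change was -0.28 after that scaling, -0.31 without Ctrl 3 and -0.64 without Ctrl 2.

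**Figure D2:**
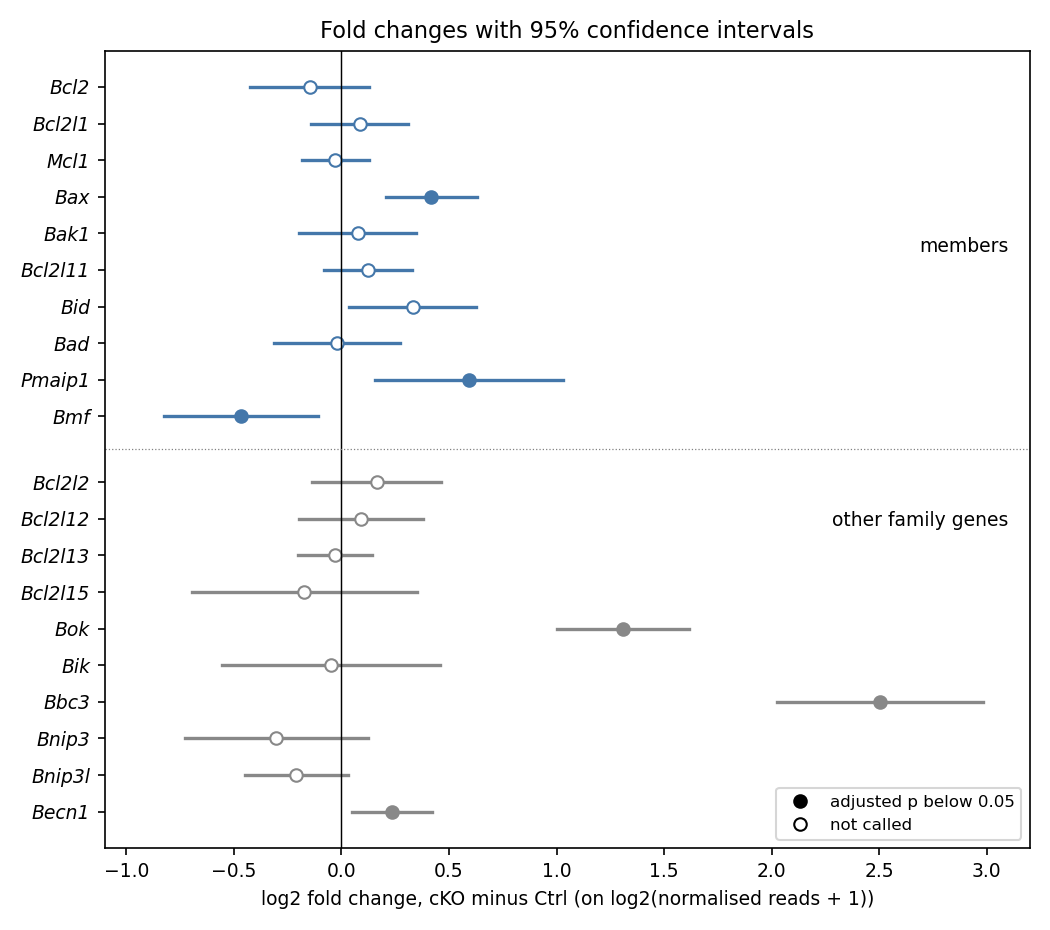
Log2 fold changes (cKO minus Ctrl, x axis) of the 10 members and of 10 other BCL2 family genes (y axis), with lines for the 95% confidence interval and filled points for adjusted p below 0.05. Among the members *Bax*, *Pmaip1* and *Bmf* are filled, and *Bbc3* (2.50) and *Bok* (1.31) lie to the right of every member.

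Levels can be compared between genes only per length, so each value was divided by the gene's exon length in kb. The lengths are those of GENCODE M21, since the annotation used for counting is not given in the sources used here, so levels, orders, ratios and sums per kb hold for these lengths. On this scale (normalised reads per kb), *Mcl1* led in Ctrl libraries with 52 ± 1.18 (SD, n = 3), followed by *Bax* at 21.4, *Bcl2l1* at 19.7 and *Bak1* at 18.1, whose values overlapped each other, then by *Bad* at 6.54 and *Bid* at 5.96, which overlapped, and *Bcl2l11* at 4.31. The lowest were *Bmf* at 2.54 and *Bcl2* at 2.01, which overlapped, and *Pmaip1* at 0.938. In the libraries labelled cKO, *Mcl1* was again first at 51.1 ± 2.66, *Bax* at 28.9 no longer overlapped *Bcl2l1* at 20.6, and *Bak1* stood at 18.8. *Bid* at 7.51 was there above *Bad* at 6.38 and *Bcl2l11* at 4.71, while *Bcl2* (1.80), *Bmf* (1.75) and *Pmaip1* (1.58) formed a lowest group in which *Bcl2* overlapped *Bmf* and *Bmf* overlapped *Pmaip1*. Of the 10 members 6 held the same place in both orders.

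Ratios within a library do not depend on the scaling between libraries. The ratio of *Bcl2* to *Bax* per kb was 0.0942, 0.109 and 0.0793 in Ctrl and 0.066, 0.0598 and 0.0612 in cKO libraries, with means of 0.0941 ± 0.0148 and 0.0623 ± 0.00325 (SD, n = 3). The ratio of *Mcl1* to *Bcl2l11* was 12.1, 12.1 and 12 in Ctrl and 10.7, 11.1 and 10.7 in cKO libraries. The ratio of *Bcl2* to *Bcl2l11* was 0.434, 0.545 and 0.42 in Ctrl and 0.393, 0.369 and 0.382 in cKO libraries. These 3 ratios were lower in every library labelled cKO than in every Ctrl library, but most such ratios overlapped. Of the 21 ratios of a guardian to an effector or BH3-only gene, 13 overlapped between the groups, 7 were lower in all cKO libraries and 1, *Bcl2l1* to *Bmf*, was higher in all of them. The ratio of *Bcl2l1* to *Bcl2l11*, for example, was 5.50, 4.06 and 4.10 in Ctrl and 4.69, 4.34 and 4.13 in cKO libraries. The ratios share genes and libraries and are a description without a test. By class, the guardians summed to 73.7 ± 4.97 normalised reads per kb in Ctrl and 73.5 ± 2.45 in cKO libraries, and the BH3-only genes to 20.3 ± 2.15 and 21.9 ± 0.833, with overlapping groups. The effectors summed to 36.3, 44.2 and 38.3 in Ctrl and 46.4, 49.1 and 47.6 in cKO libraries, which did not overlap, so that their share of the family sum was 29.6% ± 2.65 and 33.3% ± 0.183, with Ctrl 2 (32.4%) nearest to the cKO libraries. This class difference lay mostly in *Bax*, at 21.4 in Ctrl and 28.9 in cKO libraries, while *Bak1* was at 18.1 and 18.8.

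**Figure D3:**
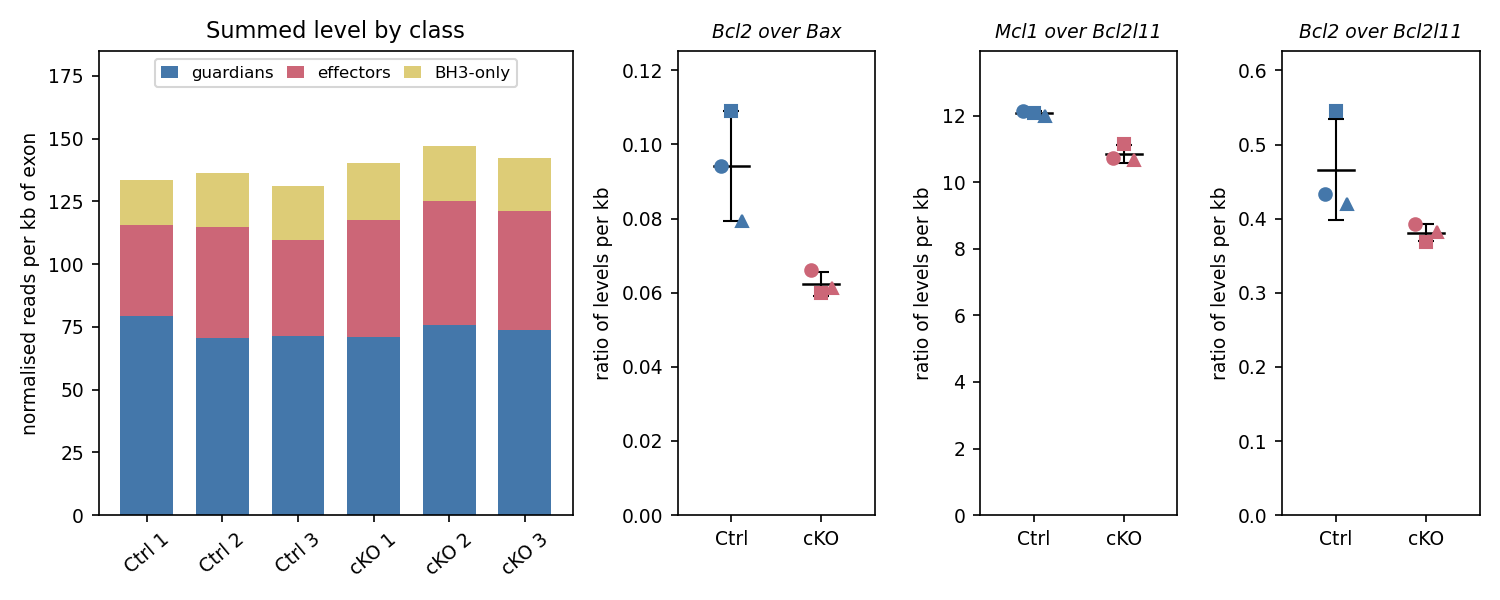
Left, stacked normalised reads per kb of exon summed over guardians, effectors and BH3-only genes in each library. Right, 3 ratios of levels per kb in each library by group (circles, squares and triangles are replicates 1, 2 and 3, bars are means and whiskers 1 SD, n = 3), all of them lower in the cKO libraries than in any Ctrl library.

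Within the family, the 2 largest differences were in other genes of the wider family. Of 16 such genes listed, 10 were in the table (*Bcl2a1a*, *Bcl2a1b*, *Bcl2a1d*, *Bcl2l10*, *Hrk* and *Bcl2l14* had no row), and 3 were higher and 0 lower, which is 30% called against 52.7% of all genes. At an unadjusted limma p under 0.05 and with voom, edgeR and DESeq2 0 were lower as well, while median centring called 1 lower and quantile normalization 2. *Bbc3*, which encodes the BH3-only protein PUMA, was at 1.97, 2.07 and 0.745 normalised reads in Ctrl and at 16.1, 11 and 13.2 in cKO libraries. The groups were far apart, with a log2 fold change of 2.50 (95% CI 2.02 to 2.98, adjusted p = 4.16e-08), or 3.19 without the added 1. *Bok*, which encodes a BAX-like effector not held by the guardians, was at 10, 12.3 and 8.29 in Ctrl and 24.2, 28.4 and 26.8 in cKO libraries (1.31, 95% CI 1.0 to 1.61, adjusted p = 5.77e-07). *Becn1*, the autophagy gene with a BH3 domain, was higher by 0.24 (adjusted p = 0.032), but shares 43.9% of its exon bases with *Cntd1* and lost the call without Ctrl 1 (0.14, adjusted p = 0.137) or any one cKO library (adjusted p from 0.054 to 0.114), without both the trend and robust estimation (0.113), with DESeq2 (0.0622) and with median centring (0.13, adjusted p = 0.237). The other 7 were not called, from *Bnip3* (-0.30) and *Bnip3l* (-0.21), which act in mitophagy, through *Bcl2l15* (-0.17, 1 to 9 reads per library), *Bik* (-0.05, 0 to 8 reads per library), *Bcl2l13* (-0.03) and *Bcl2l12* (0.09) to the guardian *Bcl2l2* (0.16), which was called after scaling to total reads (0.36, adjusted p = 0.0468). With so few reads, *Bcl2l15* was at -0.47 and *Bik* at -0.86 without the added 1, neither of them called. Overlaps with exons of other genes, added over those genes, come to 33.4% of the exon bases of *Bcl2l12*, 22.3% of *Bnip3*, 21.0% of *Bcl2l15* and 13.3% of *Bcl2l2*.

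Downstream of the family, the list of mitochondrial release factors, apoptosome genes and caspases had 23 genes in the table, of which 2 were higher and 11 lower, with a median log2 fold change of -0.20. The share called was 56.5%, beside 52.7% of all genes, of which 27.7% were higher and 25.0% lower. Lower were *Endog*, a mitochondrial nuclease (log2 fold change -1.04, or -1.58 without the added 1, adjusted p = 0.00143), the death receptor adaptor *Fadd* (-0.71, 0.000825), *Aifm1*, the apoptosis-inducing factor (-0.71, 0.0355), and *Vdac3*, a channel of the outer membrane (-0.70, 1.4e-05). *Casp2*, an initiator caspase linked to DNA damage and spindle stress, rose from 168 ± 13.6 to 271 ± 5.45 normalised reads (0.69, adjusted p = 5.73e-07). Of the apoptosome genes, named after their values were seen, *Cycs*, which encodes cytochrome c, was lower (-0.60, adjusted p = 0.00233), and *Apaf1* (0.04) and *Casp9* (0.09) were not called. *Spout1*, on the opposite strand, shares 35.7% of the exon bases of *Endog*. *Aifm1* lost its call without Ctrl 1, Ctrl 2 or cKO 3 (adjusted p from 0.0748 to 0.0932) and after scaling to total reads (-0.51, adjusted p = 0.141). Without cKO 2 only 1 gene of this list was higher, and after scaling to total reads 5 were higher and 6 lower.

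The list of partners and modifiers of the family's proteins also had 23 genes in the table, with 1 higher and 13 lower and a median of -0.35. That is 60.9% called, beside 52.7% of all genes and 25.0% of all genes lower. The largest difference was in *Btrc*, a ubiquitin ligase subunit that targets phosphorylated BIM among many proteins, at 176 ± 4.91 in Ctrl and 48.9 ± 3.83 normalised reads in cKO libraries (-1.83, adjusted p = 5.07e-12). *Ywhaz*, a 14-3-3 protein that sequesters phosphorylated BAD, was lower (-0.79, adjusted p = 1.44e-07), as were the kinases *Akt1* (-0.76, 1.39e-07) and *Akt2* (-0.50, 0.000315, or -0.30 after scaling to total reads), which phosphorylate BAD, and *Gsk3a* (-0.65, 8.06e-06), whose family phosphorylates MCL-1 for degradation. An opposite-strand gene shares 28.3% of the exon bases of *Gsk3a*. Without Ctrl 1 the number higher was 3, and after scaling to total reads 3 were higher and 6 lower.

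The list of regulators reported upstream of the family's transcription had 20 genes in the table, of which 7 were higher, 10 lower and 3 not called, with a median of -0.33. Of all genes 27.7% were higher and 25.0% lower. *Ddit3* (CHOP), a stress factor reported to act on *Bcl2l11* and *Bbc3*, rose from 10.3 ± 0.816 to 109 ± 1.67 normalised reads (3.29, adjusted p = 2.36e-14), and *Atf4*, its activator, from 76.8 ± 8.78 to 198 ± 12 (1.36, adjusted p = 6.54e-10). Overlaps of *Ddit3* exons with other gene entries, among them a second entry of *Ddit3*, add up to 10.9% of its exon bases. The study counts *Ddit3* among known NMD targets, raised in these cells and bound by phosphorylated UPF1 in activated splenic B cells. What raised *Ddit3* was not tested here. The repressors *Bach2* (-1.56, adjusted p = 2.45e-11) and *Bcl6* (-1.55, 0.00201) and the cell cycle activator *E2f1* (-1.25, 4.35e-09) were lower. *Trp53* itself, named after its values were seen, was at 87.8 ± 1.28 and 91.9 ± 4.05 (0.06, adjusted p = 0.522). *Foxo1* (0.41, adjusted p = 0.00968, with overlapping groups) and *Foxo3* (0.39, 0.0102), named in the same way, were higher. Larger differences in this list, also named after the values were seen, were those of *Stat5b* (0.66, adjusted p = 3.34e-06) and *Il7r* (-0.61, 6.53e-06). After scaling to total reads 5 genes of this list were lower, and with median centring 4 were higher.

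**Figure D4:**
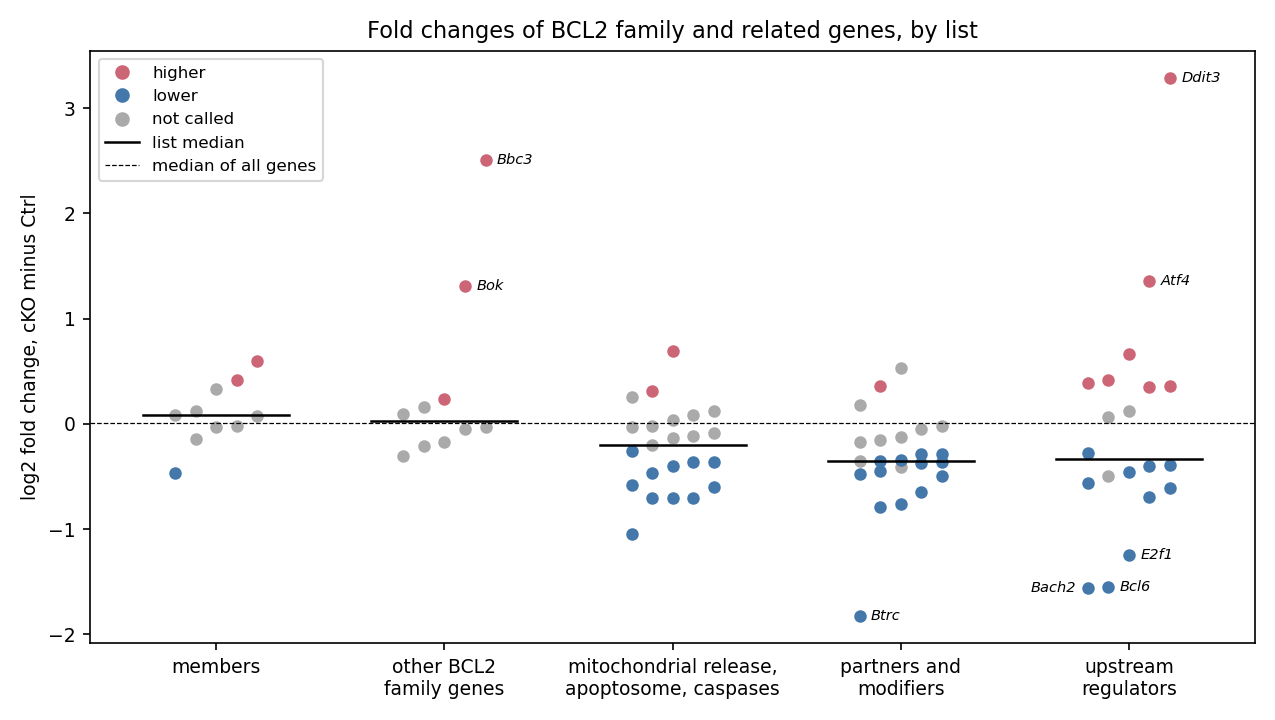
Log2 fold changes (cKO minus Ctrl, y axis) of each gene in the 5 lists, coloured by call, with a bar at each list's median and a dashed line at the median of all genes (0.01). Among the members and the other family genes *Bbc3* (2.50) and *Bok* (1.31) lie highest, and the medians of the other 3 lists lie between -0.20 and -0.35.

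The promoters were read from RefSeq (GRCm38.p6) as 250 bases before to 50 after each start, and 9 of the 10 members had an entry. They are shown for *Bax*, the member whose call held throughout, and for *Bcl2l11*, for the motifs they hold. Capitals mark a match to the p53 half-site in *Bax* (chr7:45466849-45467148, minus strand) and to the FOXO motif GTAAACA in *Bcl2l11* (chr2:128125788-128126087, plus strand).
Bax: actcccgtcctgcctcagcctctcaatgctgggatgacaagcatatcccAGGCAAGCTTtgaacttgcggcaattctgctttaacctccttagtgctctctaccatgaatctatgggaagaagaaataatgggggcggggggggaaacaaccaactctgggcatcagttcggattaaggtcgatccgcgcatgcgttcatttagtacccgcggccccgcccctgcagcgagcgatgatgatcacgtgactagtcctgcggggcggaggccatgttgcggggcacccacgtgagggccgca
Bcl2l11: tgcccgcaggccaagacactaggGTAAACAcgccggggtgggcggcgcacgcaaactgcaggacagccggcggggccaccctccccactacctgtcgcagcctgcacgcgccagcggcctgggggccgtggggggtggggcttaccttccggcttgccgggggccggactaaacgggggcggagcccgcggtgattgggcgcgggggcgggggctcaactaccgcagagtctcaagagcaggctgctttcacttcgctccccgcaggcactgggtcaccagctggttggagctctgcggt
Both strands were searched. The p53 half-site, a search added after the values were seen, starts at position -201 from the start site in *Bax* and at -213 in *Bmf*, and 8.36% of all 32851 promoters hold it. Of these genes *Bax* was higher and *Bmf* lower in the libraries labelled cKO. GTAAACA is in 3.65% of promoters and, among the members, in *Bcl2l11* alone (position -227), while *Bbc3* holds it at -167. The E2F motif TTTCGCGC or TTTGGCGC, in 0.813% of promoters, matched *Bcl2l1*, and neither the STAT motif TTCNNNGAA (8.30%) nor the CHOP or ATF4 motif TGATGNAAT (0.965%) was in any member's window. A match is a description of letters and not of binding.

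Because *Upf1* was the targeted gene, the members were also described by transcript features that are known to mark NMD substrates. GENCODE annotates an NMD transcript for 2 of the 10 members (20%), *Bak1* and *Bid*, against 28.9% of 12150 genes, and neither of them was called. The 3′ untranslated region of the members had a median of 1832 bases against 927 over 11954 genes, from 165 in *Bax* to 5086 in *Bcl2*. The median number of upstream ATG triplets was 1 against 0, with 11 in *Bcl2*. Of the called members, *Bax* (higher) had 165 bases and 1 upstream ATG triplet, *Pmaip1* (higher) 2187 bases and 2 triplets, and *Bmf* (lower) 3801 bases and 0 triplets.

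*Pmaip1*, the member with the largest absolute log2 fold change, was also compared with all genes over the 6 libraries. The genes most like it in log2(normalised reads + 1) were *Cmtm3* (Pearson r 0.997), *Pcgf6* (0.992) and *Slc3a2* (0.991), and 739 genes had r above 0.9 and 162 above 0.95. The 6 points share the 2 groups, so these values describe the group difference as much as the libraries.

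**Figure D5:**
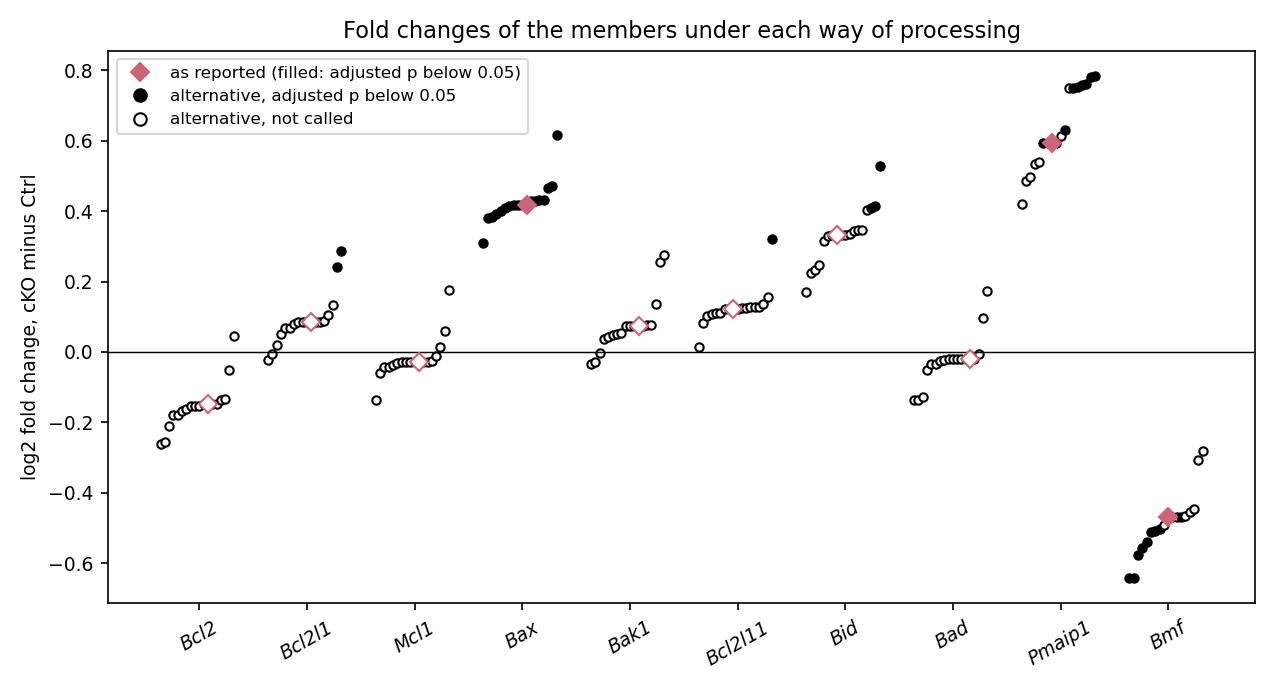
Log2 fold changes (cKO minus Ctrl, y axis) of the 10 members (x axis) as reported (diamonds) and under each alternative way of processing (circles), sorted by value within a gene, with filled symbols for adjusted p below 0.05. All *Bax* symbols are filled, from 0.31 to 0.62, while *Pmaip1* and *Bmf* have both filled and open symbols.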

How the data were processed

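Early LPre-B cells were profiled by RNA sequencing of rRNA-depleted libraries, 3 per group. Per the labels and the study's methods, reads were trimmed with cutadapt 4.0, aligned to mm10 with HISAT2 from a single end without strand, counted with featureCounts 2.0.1 and normalised with limma 3.48.0. The authors deposited a linear signal per Entrez ID, which equals the reads plus 0.5 per 1000000 of an effective library size, so whole reads could be recovered for 100% of values (tolerance 0.1). Groups and replicate numbers came from the labels. RefSeq named 13008 of the 13426 IDs, and exon lengths and overlaps came from GENCODE M21 (GRCm38). The groups were compared in R 4.3.3 by limma 3.58.1, with robust eBayes and an intensity trend, on log2(value + 1), a scale that understates changes of low genes. The fit had no covariate, and p-values were adjusted over all genes by Benjamini-Hochberg. SE are moderated. The alternatives were a replicate block, eBayes with neither trend nor robust estimation, voom, edgeR 4.0.16, DESeq2 1.42.0, other scalings, pseudocounts and a minimum, and leaving out each library. The members and lists were chosen with earlier results of these data known. All members and other family genes, at most 5 called genes of each other list by absolute fold change, *Upf1*, 4 stage markers and the 3 genes most like *Pmaip1* are named by rule. The fit was tested on simulated data. Reads carry no molecular identifiers.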

Additional observations from a re-analysis of the deposited data

How the results depend on the processing

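The log2 fold changes of *Bax*, *Bbc3*, *Bok*, *Casp2* and *Ddit3* kept their direction and their call under every alternative run. Scaling to total reads, which moved the median of all genes from 0.01 to 0.19, gave 5 members higher and 0 lower, 5 release and caspase genes higher and 6 lower, 3 partners higher and 6 lower, 5 regulators lower and 1936 genes lower in all, turned *Bcl2* (0.046), *Mcl1* (0.17), *Bad* (0.17), *Bik* (0.013) and *Bcl2l13* (0.17), brought *Bcl2l1* (0.29), *Bcl2l11* (0.32), *Bid* (0.53) and *Bcl2l2* (0.36) past the threshold and took *Bmf* (-0.28) below it. Median centring, which moved that median to -0.10, gave 1 member higher, 1 other family gene lower, 1 release or caspase gene higher and 4 regulators higher, turned *Bcl2l1* (-0.024), *Bak1* (-0.033) and *Bcl2l12* (-0.017) and lost *Pmaip1* (0.49). Quantile normalization gave 1 member higher, 2 other family genes lower and 2 partners higher, turned *Mcl1* (0.059), *Bcl2l12* (-0.013) and *Bcl2l13* (0.018) and lost *Pmaip1* (0.42). DESeq2 gave 1 member higher and lost *Pmaip1* (0.75). Without both the trend and robust estimation 0 members were lower, with *Bmf* at -0.47 and not called, and 4 regulators were higher. Voom and edgeR each called 2 partners higher. Leaving out 1 library at a time gave 1 to 3 members higher and 0 to 1 lower, 1 to 2 release and caspase genes higher and 1 to 3 partners higher, with *Bcl2* between -0.21 and -0.050, *Bcl2l1* between -0.0058 and 0.24, *Mcl1* between -0.060 and 0.014, *Bak1* between -0.030 and 0.26, *Bid* between 0.17 and 0.41, *Bad* between -0.14 and 0.10, *Pmaip1* between 0.50 and 0.75, *Bmf* between -0.64 and -0.31, *Bik* between -0.21 and 0.20, *Bcl2l15* between -0.41 and -0.017, *Bnip3* between -0.45 and -0.13, *Bnip3l* between -0.27 and -0.12, *Bcl2l13* between -0.060 and -0.0020, *Bcl2l2* between 0.043 and 0.26 and *Bcl2l12* between -0.039 and 0.26. The cause of these moves was not tested. The column names number the same-numbered Ctrl and cKO libraries next to each other. Deviations of same-numbered libraries correlated at 0.089, -0.029 and -0.032 over 12323 genes, and those of differently numbered libraries at -0.12 to 0.14. With 3 libraries per group, these correlations cannot decide whether the replicate numbers pair the libraries. A fit with the replicate block left 2 members higher and 1 lower and called 2 partners higher in place of 1. *Upf1* lost its call without both the trend and robust estimation and after median centring (adjusted p = 0.0685 and 0.0645). *Pmaip1* rested on 19 to 52 reads per library, so its values carry the most counting error among the members.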
